A study of Mus musculus with 6 samples.

Results

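Chemokine receptors steer activated T cells out of the blood and into tissues, and 7 of them, encoded by Cxcr3, Cxcr4, Cxcr6, Ccr2, Ccr4, Ccr6 and Ccr8, were followed here in mouse CD4 T cells with and without the miR-17-92 cluster. They were chosen by name as receptors of effector T cells, with earlier results of these data known. Each was read by the array probe sets that the platform annotation gives to that symbol and no other. All 7 were on the array, with 10 probe sets among them, out of 12393 genes and 20380 probe sets with a single symbol. Where a gene had several probe sets, the brightest over the 6 arrays stood for it and the others served as a check.

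The receptors span the cell membrane, couple to inhibitory G proteins and turn a gradient of chemokine into directed movement. In textbook terms, CXCR3 marks Th1 effector cells and answers CXCL9, CXCL10 and CXCL11, CCR4 and CCR8 are associated with Th2 cells, and CCR6 with Th17 cells. CXCR4, the receptor of CXCL12, is carried by most T cells and holds leukocytes in bone marrow and other CXCL12-rich tissue.

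The cells were sorted by flow cytometry as CD4+CD25- T cells, stimulated through CD3 and CD28 by antibodies fixed to the plate, given a retrovirus and lysed for RNA 5 days later. They grew in medium with 10% serum under 7% CO2. Wild-type B6 cells infected with the empty vector are called wild-type mock. Deficient mock cells came from B6 mice with miR-17-92 f/f alleles (flanked by loxP sites) and CD4-cre, a Cre driven by Cd4 regulatory sequence that acts in the T cell lineage, and carried the same empty vector, whereas deficient miR-17 cells had that genotype and a vector overexpressing miR-17. By their label the wild-type cells carried neither the floxed alleles nor Cre, so the deletion cannot be told apart from the presence of Cre. Each group held 2 arrays described as biological replicates. The sources used here do not say whether these were separate mice or whether infected cells were selected, so p-values measure the spread between these arrays. Neither the deletion nor the level of miR-17 was examined here, so the group names follow the labels.

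The cluster encodes several microRNAs, which pair through their seed (bases 2 to 8, in capitals) with messenger RNAs and lower their level or translation. Their mature sequences are shown because the deletion targets the whole cluster and the vector is labelled for miR-17 alone. They lie on the plus strand of chromosome 14 in build GRCm38.p6, from miR-17-5p (chr14:115043684-115043706) to miR-92a-3p (chr14:115044476-115044496), and were taken from RefSeq:
miR-17-5p: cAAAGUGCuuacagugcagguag
miR-17-3p: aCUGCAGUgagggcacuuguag
miR-20a-5p: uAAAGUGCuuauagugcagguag
miR-18a-5p: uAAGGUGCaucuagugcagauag
miR-19a-3p: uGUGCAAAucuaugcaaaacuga
miR-19b-3p: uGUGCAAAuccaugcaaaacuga
miR-92a-3p: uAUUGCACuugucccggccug
miR-17-5p and miR-20a-5p share a seed, and miR-18a-5p differs from it by A4G, counted from the 5′ end of the microRNA. The miR-19 seed, shared by miR-19a-3p and miR-19b-3p, and the miR-92a seed are different. Sites for these seeds in the receptors' transcripts were not analysed here.

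Values are the deposited log2 probe set intensities made with RMA, on which a difference of 1 is a 2-fold ratio. The median of an array was 5.71 to 5.76 and its lower quartile 3.99 to 4.17, and background can set readings near or below that quartile. Cd3e read 9.67 to 10.24 and Cd4 8.96 to 9.24 over the 6 arrays, as the label of CD4 T cells implies. Of the CD8 T cell markers, Cd8a read 4.49 to 4.62, Cd8b1 5.42 to 6.21 and Gzma 4.26 to 9.58. Of the 5 measured, 0 lay below the lower quartile on all 6 arrays, and the purity of the cultures was not tested. Differences are given with the standard error (SE) or 95% interval of a limma fit to all 6 arrays, with n = 2 arrays a group, and a gene was called at a Benjamini-Hochberg adjusted p under 0.05 over 12393 genes. An exact permutation test of 2 arrays against 2 cannot go below p = 0.333. That is what Cxcr4, Cxcr3, Cxcr6 and Ccr8 gave against wild-type mock cells in both deficient groups, and Ccr2 in deficient miR-17 cells. The RNA came from whole cultures, so fewer cells with a transcript and less of it per cell cannot be told apart.

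**Figure D1:**
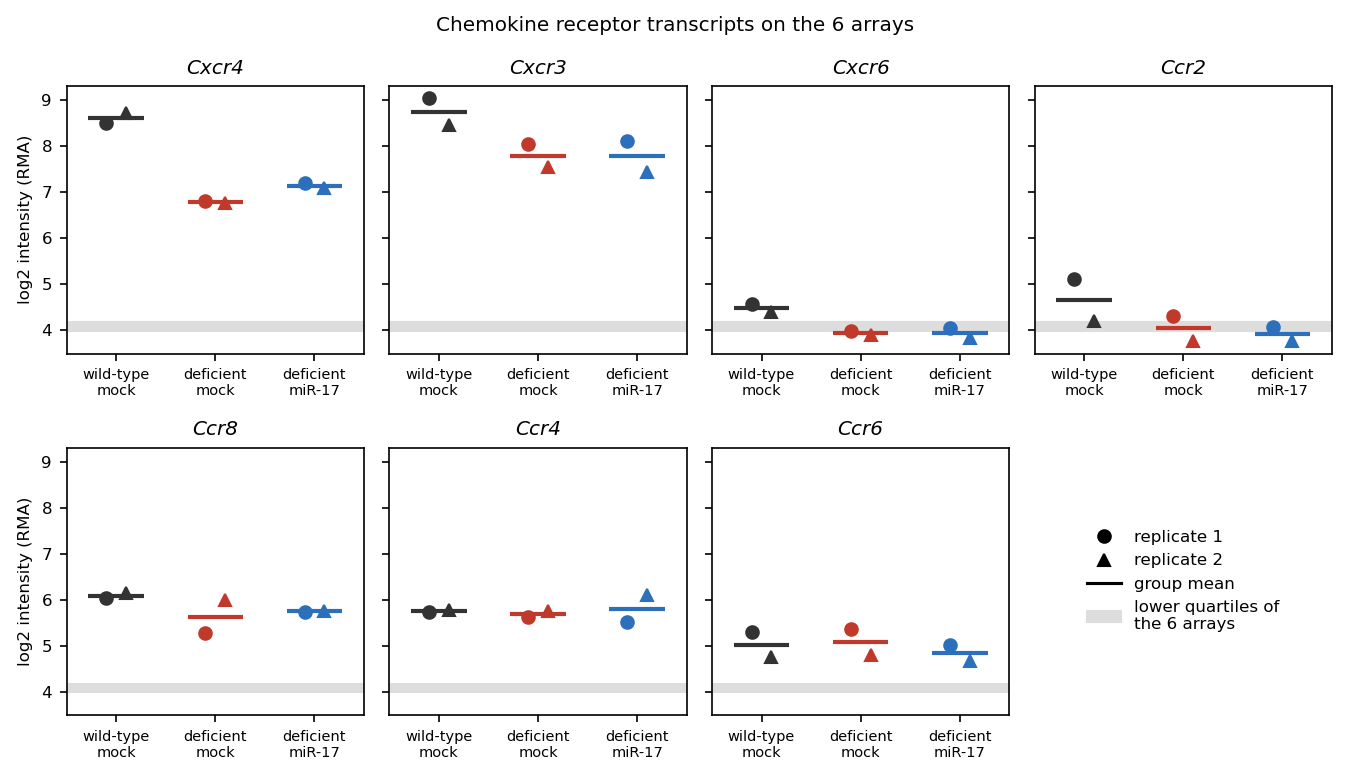
Log2 intensity (vertical axis) of the 7 chemokine receptor transcripts on each array, by group, with circles for replicate 1, triangles for replicate 2, a line at the group mean and a grey band from 3.99 to 4.17 over the arrays' lower quartiles. Cxcr4 separated wild-type mock arrays (8.50 and 8.73) from all 4 deficient arrays (6.76 to 7.20), whereas Ccr4 and Ccr6 overlapped between the groups.

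The first question was which receptors differed in cells labelled as deficient in the cluster. Cxcr4 fell about 3.6-fold in deficient mock cells and was the only 1 of the 7 that passed the test. The other CXC receptors, Cxcr3 and Cxcr6, read lower on both deficient mock arrays but did not pass. Of the CC receptors, Ccr2 and Ccr8 had lower means and Ccr4 and Ccr6 had means within 0.06 of wild type, and none passed.

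Cxcr4 read 8.50 and 8.73 in wild-type mock, 6.81 and 6.76 in deficient mock, and 7.20 and 7.09 in deficient miR-17 cells. Both wild-type arrays lay above all deficient arrays, and within the deficient cells both miR-17 arrays lay above both mock arrays. The difference between deficient mock and wild-type mock was -1.83 ± 0.12 (SE), a 3.56-fold lower level with a limma adjusted p of 0.000871 and a 95% interval of -2.12 to -1.54. It was the 9th smallest p-value of the 12393 genes. Leaving out any array kept the call, with differences of -1.94 to -1.72 and limma adjusted p of 0.00138 to 0.00802. In this comparison 6.54% of all genes were called in either direction and 2.79% were called lower, against 1 of the 7 receptors, and 3.74% of genes but 0 receptors were called higher. At an unadjusted p under 0.05 there were 3 of the 7 receptors (Cxcr4, Cxcr3 and Cxcr6) and 21.6% of all genes.

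On the same arrays the poly-A transcripts spiked into the RNA before labelling also read lower, by a mean of -0.57 and in 24 of 24 probe sets, and the hybridization controls by -0.17 in 18 of 18. The median over all genes was -0.03, since RMA scales the arrays to a common distribution. The part of these control differences in the Cxcr4 result, or in any other difference given here, was not tested. The poly-A shift was of the size of the differences of Cxcr6 (-0.54), Ccr2 (-0.62) and Ccr8 (-0.46). Between the deficient groups the poly-A controls differed by 0.03 and the hybridization controls by -0.12, and from wild-type mock to deficient miR-17 by -0.54 and -0.29. Of 9 measured CD4 T cell genes, 9 had a difference below 0 between deficient mock and wild-type mock and 1, Thy1, was called lower (-0.73 ± 0.10). In that comparison 6813 of 12393 genes were below 0 and 2.79% were called lower. Gzma, a granule protease counted among the CD8 T cell markers, read 9.58 and 6.53 in wild-type mock, 5.42 and 4.71 in deficient mock, and 4.62 and 4.26 in deficient miR-17 cells. Of the 5 CD8 T cell markers, 0 were called here. Gzma was called against wild-type mock in deficient miR-17 cells (-3.61 ± 0.82), a call lost under 7 of the 14 alternatives, with differences from -5.14 without wild-type mock replicate 2 to -2.08 without replicate 1. Cd8a stayed within 4.49 to 4.62. Cd8b1, of the same list, read 5.66 and 6.21 in wild-type mock, 5.90 and 6.01 in deficient mock, and 5.42 and 6.09 in deficient miR-17 cells. The mean of the 5 markers was 6.19 and 5.69 in wild-type mock cells and 5.14 to 5.38 on the 4 deficient arrays. Without Gzma the mean of the other 4 was 5.34 and 5.48 in wild-type mock cells and 5.33 to 5.37 on the deficient arrays. The part of Gzma-expressing cells in the receptor results was not tested.

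Cxcr3 read 9.05 and 8.46 in wild-type mock, 8.05 and 7.55 in deficient mock, and 8.12 and 7.44 in deficient miR-17 cells. The lower wild-type array lay above the highest deficient array, and in each group the array numbered 1 read above the array numbered 2. The difference of deficient mock from wild-type mock was -0.96 ± 0.28, with an unadjusted p of 0.00957 and a limma adjusted p of 0.0908, so it did not pass. It ranged from -1.25 to -0.66 when single arrays were left out, the smallest drop being that without the brighter wild-type array. A more negative difference was found in 1.16% of all genes. With the replicate number added to the fit as a block, Cxcr3, Cxcr6 and Ccr2 were called too (limma adjusted p = 0.000535, 0.00768 and 0.0208). The count of all genes called then rose from 810 to 2723. The labels do not say what a replicate number marks, so the calls given here are those without the block.

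Cxcr6, the receptor of the membrane-bound chemokine CXCL16, read 4.57 and 4.39 in wild-type mock, 3.97 and 3.89 in deficient mock, and 4.04 and 3.82 in deficient miR-17 cells. All 4 deficient arrays lay below their own lower quartile, so the difference of -0.54 ± 0.13 (limma adjusted p = 0.0543) was between a dim reading and one that background can set, and it did not pass. The second probe set read 3.78 and 3.13 in wild-type mock and 2.63 and 2.44 in deficient mock, below the lower quartile on all 6 arrays. Its difference was -0.92 ± 0.20, and with every probe set kept as its own row its limma adjusted p was 0.0418. With the mean of both sets Cxcr6 was called (-0.73, limma adjusted p = 0.0457), so its call depended on how the sets were combined.

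Ccr2, the receptor of CCL2 on monocytes and effector T cells, read 5.12 and 4.21 in wild-type mock, 4.32 and 3.76 in deficient mock, and 4.08 and 3.75 in deficient miR-17 cells. The wild-type arrays stood far apart, 3 of the 6 arrays lay below their own lower quartile, and the groups with the empty vector overlapped. The difference was -0.62 ± 0.31 (95% interval -1.33 to 0.09, limma adjusted p = 0.3) and it was -0.17 with the brighter wild-type array left out. Of 8 macrophage and monocyte markers, cells that also carry Ccr2, 1 was called lower (Fcgr3, -1.27 ± 0.21, lost under 4 of 14 alternatives) and 7 were below 0. Mpeg1 was above 0 (0.58 ± 0.20) and was not called. Over all genes 2.79% were called lower, and 6813 of 12393 were below 0. The mean level of the 8 markers was 4.87 and 4.82 in wild-type mock and 4.56 to 4.65 on the 4 deficient arrays. Fcgr3 by itself read 7.57 and 7.96 in wild-type mock and 6.34 to 6.90 on the deficient arrays. Lyz2 and Cd14 lay below the lower quartile on all 6 arrays, and the part of these markers in the Ccr2 reading was not tested. No marker of B cells, dendritic cells, NK cells or neutrophils was called (0 of 6, 0 of 4, 0 of 5 and 0 of 5). The dimmer Ccr2 probe sets, both below the lower quartile on all 6 arrays, differed by -0.25 ± 0.18 and -0.07 ± 0.14.

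Ccr8, the receptor of CCL1, read 6.04 and 6.14 in wild-type mock, 5.27 and 5.996 in deficient mock, and 5.74 and 5.76 in deficient miR-17 cells. The first deficient mock array stood below its partner and all other arrays, and the difference was -0.46 ± 0.23 (limma adjusted p = 0.302) with it and -0.10 without it. Ccr8 was among the 4 receptors whose wild-type mock and deficient mock arrays did not overlap, as were 49.9% of all genes.

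Ccr4, the receptor of CCL17 and CCL22, read 5.73 and 5.78 in wild-type mock, 5.63 and 5.76 in deficient mock, and 5.51 and 6.10 in deficient miR-17 cells. Its difference between deficient mock and wild-type mock was -0.06 ± 0.20, with a 95% interval of -0.53 to 0.41. Ccr6, the receptor of CCL20, read 5.29 and 4.76 in wild-type mock, 5.37 and 4.80 in deficient mock, and 5.01 and 4.66 in deficient miR-17 cells, and differed by 0.06 ± 0.25 (95% interval -0.52 to 0.64). The groups overlapped for both genes, and with intervals this wide equal levels were not shown. Across all 7, 6 differences were below 0 and the median was -0.54, against a median of -0.03 over all genes, of which 6813 were below 0 and 5578 above. The 7 were chosen with earlier results of these data known, so these values are no test of the receptors as a class.

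**Figure D2:**
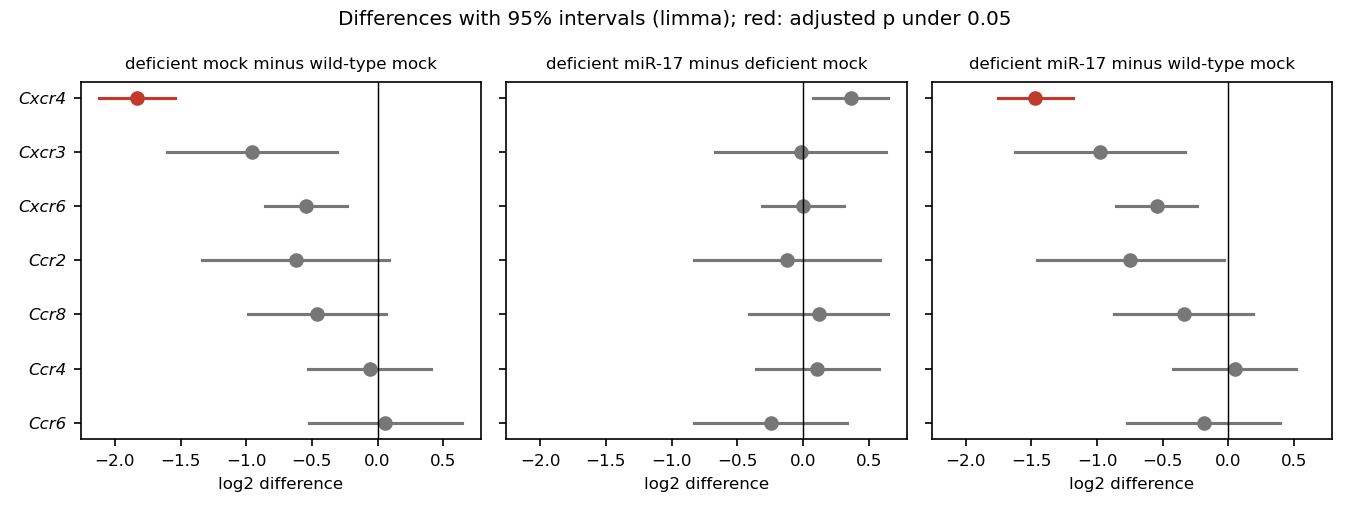
Log2 differences (horizontal axis) of the 7 receptors in the 3 comparisons, as points with 95% intervals from limma, red where the adjusted p was under 0.05. Cxcr4 was red against wild-type mock in both deficient groups (-1.83 and -1.47), and no receptor was red between the deficient groups.

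The second question was whether the receptors differed between deficient cells with the miR-17 vector and those with the empty vector. No receptor passed, and limma called 0 of the 12393 genes (0%), with 487 genes (3.93%) at an unadjusted p under 0.05. Cxcr4 was the only receptor among the latter. Its difference of deficient miR-17 from deficient mock was 0.36 ± 0.12, a 1.29-fold higher level, with an unadjusted limma p of 0.0199, a limma adjusted p of 1 when rounded (0.9995) and a 95% interval of 0.07 to 0.65. With any array left out it stayed between 0.30 and 0.42. Its deficient miR-17 and deficient mock arrays did not overlap, which held for 28.9% of all genes and for 1 of the 7 receptors.

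The remaining receptors lay close together in the deficient groups, within the spread of their arrays. Cxcr3 differed by -0.02 (95% interval -0.67 to 0.63) and Cxcr6 by -0.001 (95% interval -0.31 to 0.31). Ccr2 differed by -0.12 (95% interval -0.83 to 0.59), Ccr4 by 0.11 (-0.36 to 0.58), Ccr6 by -0.25 (-0.83 to 0.33) and Ccr8 by 0.12 (-0.41 to 0.65). These intervals span 0 but are wide, so equal levels were not shown here either.

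The third comparison, deficient miR-17 against wild-type mock, shares the wild-type arrays with the first. Cxcr4 was still lower, by -1.47 ± 0.12 (2.77-fold, limma adjusted p = 0.00378), and was again the only 1 of the 7 called, where 6.8% of all genes were called and 2.77% were called lower. No receptor was called higher, against 4.03% of genes, and 4 of the 7 receptors and 22.8% of all genes had an unadjusted p under 0.05. Leaving out any array kept that call, with differences of -1.58 to -1.36. Across the 3 groups the order of Cxcr4 was wild-type mock (mean 8.62), deficient miR-17 (7.15) and deficient mock (6.78), and the last neighbours in that order did not differ by the adjusted test.

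Cxcr3 differed from wild-type mock by -0.98 ± 0.28 (limma adjusted p = 0.0833) and Cxcr6 by -0.55 ± 0.13 (limma adjusted p = 0.0529). For Cxcr3 the limma adjusted p was 0.0479 without deficient miR-17 replicate 1, and the difference was -0.63 without replicate 2. Ccr2 (-0.75 ± 0.31, limma adjusted p = 0.198), Ccr8 (-0.34 ± 0.23), Ccr6 (-0.19 ± 0.25) and Ccr4 (0.05 ± 0.20) did not pass either. With single arrays left out Ccr2 ranged from -1.20 (without wild-type mock replicate 2) to -0.29 (without replicate 1), and Ccr6 from -0.45 to 0.08 without the same arrays. Here 5 of the 7 receptors had arrays that did not overlap, as did 50.4% of all genes.

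The genes whose values followed Cxcr4 most closely over the 6 arrays were sought among 778 genes that spanned at least 1 log2 unit, each centred on its own mean. The closest were Slamf7, a receptor of lymphocytes (root mean square difference 0.10), Nfil3, a basic leucine zipper factor (0.16), and Mgll, a lipase of monoacylglycerols (0.17). Slamf7 read 7.99 and 8.04 in wild-type mock, 6.40 and 6.23 in deficient mock, and 6.59 and 6.43 in deficient miR-17 cells. It differed by -1.70 ± 0.13 between deficient mock and wild-type mock and by 0.20 ± 0.13 between the deficient groups, where Cxcr4 had -1.83 and 0.36. Likeness over 6 arrays in 3 groups is a description of these arrays.

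**Figure D3:**
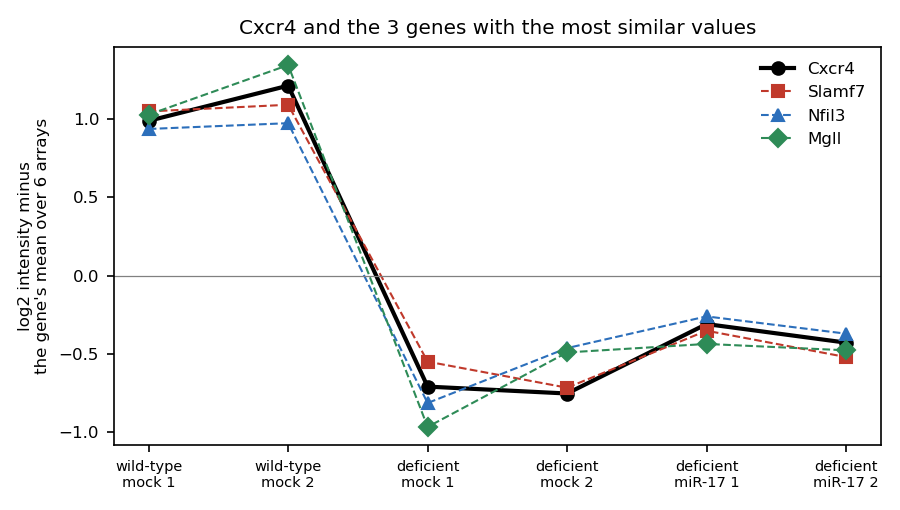
Log2 intensity minus the gene's mean over the 6 arrays (vertical axis) for Cxcr4 and for Slamf7, Nfil3 and Mgll on each array (horizontal axis, group and replicate number). All 4 genes lay above 0 on the wild-type mock arrays and below 0 on the 4 deficient arrays. The lines join arrays only to guide the eye.

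Promoter sequence is shown for Cxcr4, the receptor that was called, and beside it for the other CXC receptors. RefSeq gave start sites for all 7 receptors, 8 in all, and each run is the 250 bases upstream of the start, written in the direction of the gene, with matches to any of 10 motifs in capitals (GRCm38.p6; Cxcr4 at chr1:128592300-128592549 on the minus strand, Cxcr3 at chrX:101734148-101734397 on the minus strand, Cxcr6 at chr9:123806227-123806476 on the plus strand):
Cxcr4: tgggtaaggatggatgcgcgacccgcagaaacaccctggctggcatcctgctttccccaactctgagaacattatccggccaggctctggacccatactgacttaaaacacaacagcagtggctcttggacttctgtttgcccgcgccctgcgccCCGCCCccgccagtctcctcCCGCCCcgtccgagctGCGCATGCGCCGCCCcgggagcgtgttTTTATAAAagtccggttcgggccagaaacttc
Cxcr3: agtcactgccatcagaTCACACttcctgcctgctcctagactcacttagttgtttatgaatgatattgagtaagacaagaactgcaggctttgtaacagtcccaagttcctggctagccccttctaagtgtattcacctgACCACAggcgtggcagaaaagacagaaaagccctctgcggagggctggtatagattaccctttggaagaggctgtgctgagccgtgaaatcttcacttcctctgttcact
Cxcr6: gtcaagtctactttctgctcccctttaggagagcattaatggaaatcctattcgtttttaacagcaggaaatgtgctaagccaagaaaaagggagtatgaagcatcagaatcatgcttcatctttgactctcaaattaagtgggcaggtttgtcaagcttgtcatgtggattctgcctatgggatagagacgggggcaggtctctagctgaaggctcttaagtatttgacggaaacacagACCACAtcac
Motifs were searched on both strands as an NRF1 site (its palindromic consensus, matched in the run of capitals that starts 59 bases before the Cxcr4 start), a GC box (GGGCGG), the TATA box (TATAAA), the T-box half-site (GTGTGA), the GATA factor site (AGATAA), a RUNX site (TGTGGT), a STAT site (TTCNNNGAA), an AP-1 site (TGANTCA), a FOXO site (TGTTTAC) and the core of the hypoxia element (ACGTG).

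The Cxcr4 promoter differed from those of Cxcr3 and Cxcr6. It held 19 CpG in the 250 bases, against a median of 6 over 32851 promoters, of which 80.27% had fewer than Cxcr4. Its motifs were an NRF1 site, found in 0.78% of promoters, 3 GC boxes (32.74% of promoters held at least 1) and 2 overlapping matches to the TATA box (12.37%). The NRF1 site overlapped the GC box nearest to the start. The Cxcr3 promoter held 3 CpG, a T-box half-site (12.29% of promoters), the element bound by T-bet and its relatives, and a RUNX site (14.05%). The Cxcr6 promoter held 3 CpG and a RUNX site. No FOXO site lay in any of the 8 windows, and 3.17% of promoters held one, so absence is the usual case. Of the windows not printed, those of Ccr2, Ccr6 and Ccr8 held a GATA site (9.99% of promoters). The Ccr6 windows also held a STAT site (7.02%) and the hypoxia core (16.57%), and that of Ccr4 an AP-1 site (6.75%). A match is a run of letters and shows neither binding nor a cause.

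Among transcription factors of T helper lineages, 7 of 19 measured were lower in deficient mock cells, 0 were higher and 12 did not pass (median -0.34, against -0.03 over all genes). Over all genes 2.79% were called lower and 3.74% higher in this comparison. Prdm1, which encodes the effector regulator Blimp-1, fell by 2.13 on the log2 scale, Batf by 1.50 and Stat4, the transducer of IL-12, by 0.89, and these calls held under all 14 alternatives. Stat3 (-0.70 ± 0.13), Gata3, the Th2 regulator (-0.74 ± 0.15), Foxo1 (-0.56 ± 0.10) and Bcl6 (-1.46 ± 0.31) were lower too, but each lost the call when single arrays were left out, and the other probe sets took Stat3 and Foxo1 above the threshold when averaged in. Tbx21, which encodes T-bet and is known to drive Cxcr3, differed by -0.33 ± 0.17 (limma adjusted p = 0.323) and did not pass. Klf2, a regulator of trafficking receptors, differed by 0.0003 ± 0.23, and Foxp3 by 0.27 ± 0.13 (limma adjusted p = 0.267). Foxp3 read 3.42 to 3.89 over all arrays, below the lowest of the arrays' lower quartiles (3.99), a range that background can set.

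Of the machinery downstream of the receptors, 32 genes were measured, of which 1 was higher, 3 were lower and 28 did not pass (median -0.06), to be read against the same shares of all genes, 2.79% lower and 3.74% higher. Arrb1, which encodes a beta-arrestin that uncouples activated receptors, read 8.14 and 8.39 in wild-type mock, 6.69 and 6.83 in deficient mock, and 7.25 and 7.09 in deficient miR-17 cells. Like Cxcr4, it was lowest on the deficient mock arrays, with a difference of -1.51 ± 0.13 (limma adjusted p = 0.00324), and after miR-17 it differed by 0.41 ± 0.13, which did not pass. Rgs10, which shortens G protein signals, fell by 0.66 on the log2 scale and Rassf5, an adaptor of chemokine-triggered adhesion, by 0.47, whereas Grk5, a receptor kinase, was higher by 0.70 ± 0.16. Those 3 calls ended under 3, 11 and 8 of the 14 alternatives. Rassf5, Foxo1 and Mgll were read by probe sets of a type that can match several transcripts, so their values are uncertain.

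None of the other measured chemokine receptors or of the ligands passed. Of 14 further receptors measured, 0 were called by limma between deficient mock and wild-type mock, with 2 at an unadjusted p under 0.05 (Ccr1, -0.63 ± 0.17, and Cxcr2, -0.41 ± 0.12), and their median was -0.09. Ccr7, the receptor that brings T cells to lymph nodes, read 9.94 and 10.15 in wild-type mock and 10.05 and 9.85 in deficient mock cells (-0.10 ± 0.11). Of 13 ligands of the 7 receptors, 0 were called by limma and 0 had an unadjusted p under 0.05, against the same 21.6% (median -0.07). Cxcl12, the ligand of CXCR4, differed by -0.23 ± 0.27.

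Between the deficient groups, limma called 0 genes of these 4 lists. At an unadjusted p under 0.05 there were 0, 0, 1 and 1 genes among receptors, ligands, signalling genes and lineage factors, against 3.93% of all genes. The signalling gene was Arrb1 (0.41 ± 0.13) and the lineage factor was Maf (-0.33 ± 0.13), which read lower with the miR-17 vector. Against wild-type mock, on the arrays shared with the first comparison, 7 lineage factors and 3 signalling genes were lower in deficient miR-17 cells and 0 were higher, where 2.77% of all genes were called lower and 4.03% higher. Gata3 was not among them (-0.59 ± 0.15, limma adjusted p = 0.0599). Nor was Tbx21 (-0.59 ± 0.17, limma adjusted p = 0.083), for which the difference in deficient mock cells had been -0.33 ± 0.17. Arrb1 was lower by -1.10 ± 0.13 and lost its call without deficient miR-17 replicate 2 (limma adjusted p = 0.0593). Of the others called in both comparisons, Rassf5 lost its call under 8 of the 14 alternatives, Foxo1 under 6, Bcl6 and Rgs10 under 3 each, and Stat3 under 2.

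**Figure D4:**
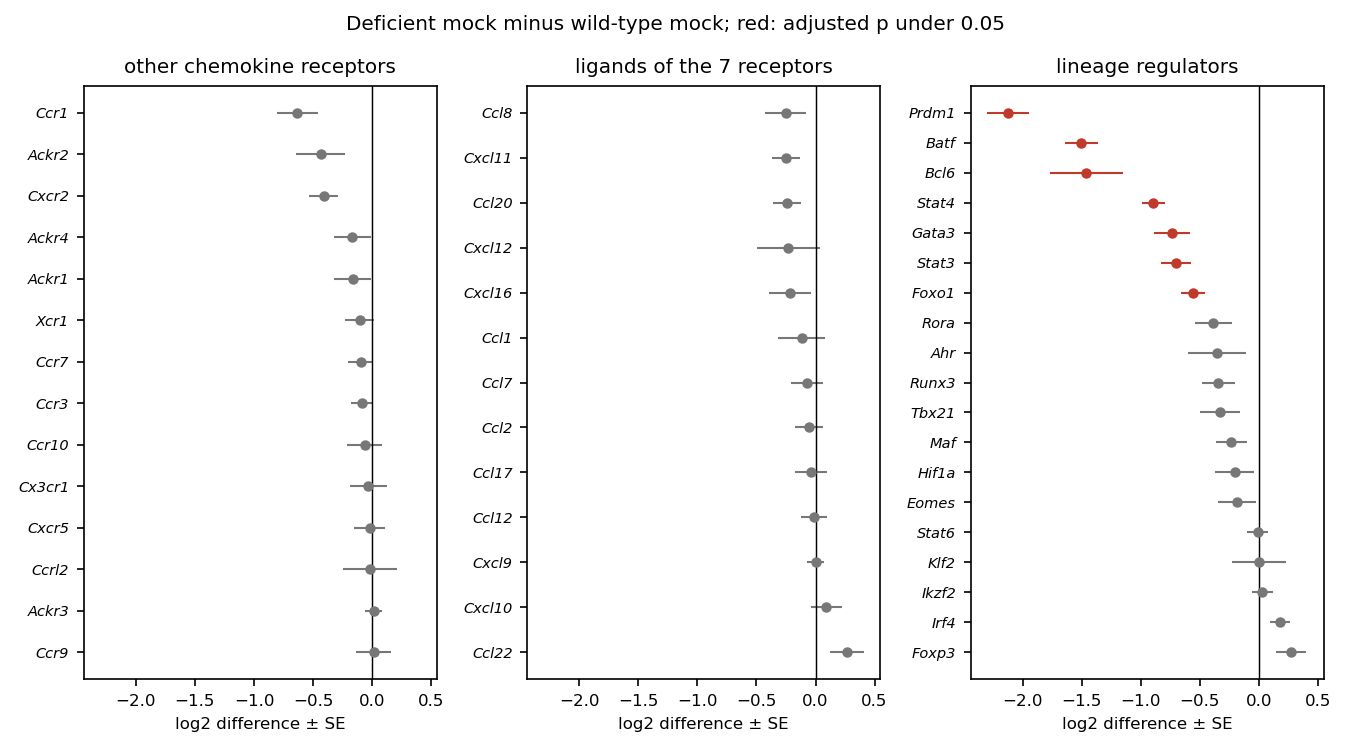
Log2 differences of deficient mock from wild-type mock (horizontal axis, points with SE from limma, n = 2 arrays a group) for the other chemokine receptors, the ligands of the 7 receptors and lineage regulators, red where the adjusted p was under 0.05. The red points were all lineage regulators, led by Prdm1 at -2.13.

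By RefSeq gene order, 4 of the 7 receptors lie on chromosome 9, and Cxcr6 and Ccr2 stand at the ends of a run with 4 protein-coding genes between them, Xcr1, Ccr1, Ccr1l1 and Ccr3. Along that run the differences of deficient mock from wild-type mock were -0.54 for Cxcr6, -0.10 for Xcr1, -0.63 for Ccr1, -0.17 for Ccr1l1, -0.09 for Ccr3 and -0.62 for Ccr2, and limma called 0 of these 6. All were dim, with group means of 2.97 to 4.66, near the range that background can set.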

How the data were processed

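Per the submitters' processing notes, the authors made the deposited log2 values with RMA (version not given in the sources used here), which subtracts background, quantile normalizes and summarises probe sets. The log base was taken from that convention and from the range of values. A shift common to most genes is removed by that step. Of 22690 probe sets, 64 controls, 691 with several symbols and 1555 unnamed were left out, and symbols were checked by gene identifier against RefSeq (GRCm38.p6). The set with the highest mean over 6 arrays stood for each of 12393 genes. The 6 arrays entered 1 fit, made with limma 3.58.1 under R 4.3.3 (lmFit, contrasts.fit, eBayes with trend), with 3 residual and 4.69 prior degrees of freedom, and the script was tested on simulated data. The number of arrays, 2 a group, limits the precision. Members, gene lists and alternatives were chosen with earlier results of these data known. Named genes were the 7 receptors, up to 6 called genes per list and comparison, Tbx21, Gata3, Foxp3, Klf2 and Foxo1, and the 3 genes nearest each called receptor. Thy1, Fcgr3, Mpeg1, Lyz2, Cd14, Cxcl12, Ccr1, Cxcr2, Ccr7, Xcr1, Ccr1l1, Ccr3, Gzma, Maf, Cd3e, Cd4, Cd8a and Cd8b1 values shown beyond that rule were chosen after they were seen. Figures were drawn with matplotlib 3.10.9.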

Additional observations from a re-analysis of the deposited data

How the results depend on the processing

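Under the 14 alternatives the 21 receptor differences gave 278 results on the same side of the threshold, 10 that newly passed and 0 that lost a call. Cxcr4 was called against wild-type mock under all of them, at -1.94 to -1.72 in deficient mock and -1.58 to -1.36 in deficient miR-17 cells. The number of receptors called in deficient mock against wild-type mock was 1, and 2 with the mean of probe sets or with the arrays quantile normalized again, Cxcr6 being added. In deficient miR-17 against wild-type mock it was 2 with that normalization (Cxcr6 added) and 1 to 2 with 1 array left out (Cxcr3 added without deficient miR-17 replicate 1). With the replicate number as a block (replicate block) it was 4 in both, Cxcr3 (limma adjusted p = 0.000535 and 0.000469), Cxcr6 and Ccr2 being added, and the count of all genes rose from 810 to 2723, from 0 to 38 and from 843 to 2983 in the 3 comparisons. The gap from replicate 1 to replicate 2 was similar in the groups (correlation over genes 0.429 to 0.634), but nothing in the labels says that a number marks a shared animal or day, so this pairing is only a hint. Without an array, 95 to 693 genes (deficient mock) and 74 to 697 (deficient miR-17) were called against wild-type mock. The former count was 101 and 365 without wild-type mock replicates 1 and 2, and 277 and 95 without deficient mock replicates 1 and 2. The latter was 105 and 448 without those wild-type arrays, 473 and 74 without deficient miR-17 replicates 1 and 2, and without a trend in the variance 508 in the latter. Cxcr6 and Ccr2 had no value with dim genes left out. Signal near background limits both.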
